A study of Mus musculus with 3 samples.

Results

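The immediate early genes Fos, Fosb, Jun, Junb, Jund, Egr1, Egr2, Atf3, Ier2 and Dusp1 were followed in skin-resident macrophages at 3 stages of telogen, the resting phase of the hair cycle. The 10 genes were chosen by name and found on the array through the RefSeq transcript that the scanner files give for each probe. They are 10 of the 19752 genes that could be named in this way, and each was read by 1 probe. The cells were CD11b+Gr1-F480+ cells sorted by FACS from collagenase-digested total backskin of CD1 mice, with RNA pooled from 3 littermates at each stage. According to the labels the early telogen (Te) mice were at postnatal day 42, the middle telogen (Tm) mice at day 55 and the late telogen (Tl) mice at day 69. No genotype or treatment separated the stages. Each stage has 1 array, so no test between stages could be made, and every difference below compares 2 pools of mice.

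Immediate early genes are transcribed within minutes of a stimulus without new protein synthesis, through transcription factors such as SRF, its ternary complex partners and CREB that already sit at their promoters. Their products include the Fos and Jun proteins, which pair to form the transcription factor AP-1, the zinc finger factors of the Egr family, and feedback proteins such as the phosphatase Dusp1, which switches off MAP kinases. In macrophages they respond to growth factors, adhesion and inflammatory stimuli, and they are also known to be induced while tissue is dissociated into single cells. No undigested or unsorted sample is among the 3, so the share of these transcripts made during digestion and sorting and the share present in the skin cannot be told apart.

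The Tm and Tl arrays carry conflicting labels in the deposit. The Tm column of the value table matched the scanner file of Tl (Pearson r = 1 over 36396 probes for the difference from Te), and its Tl column matched the scanner file of Tm (r = 1 over 36390 probes). Matched as labelled, r was 0.728 in both cases. Tm and Tl below name the arrays as the scanner files are deposited, the Te array is not touched by the conflict, and changes from Te are given for both later arrays. All probes were on 1 slide.

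Levels are log2 processed intensities relative to the 75th percentile of the array, so a value of 5 is a signal 5 doublings above that percentile. Between 59.6% and 71.4% of 55681 probes were well above background, and no spot was saturated. The 10 genes were well above background on all 3 arrays. The error available is the spread of repeated spots of bright probes, whose SD on the log2 scale was 0.071 for the Te array, 0.083 for Tm and 0.095 for Tl. For a difference between 2 arrays this gives 2 SD of 0.238 from Te to Tl, 0.218 from Te to Tm and 0.252 from Tm to Tl. It covers the spots only and holds nothing of the spread between mice, sorts or amplifications.

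The sorted cells carried macrophage transcripts, and the later arrays also carried more keratinocyte transcript. All 15 macrophage markers on the array were detected at each stage, and Adgre1, which encodes the F480 antigen, stood at 4.83 at Te, 5.51 at Tm and 5.15 at Tl. The 15 keratinocyte markers were detected at each stage too, with a median change of 3.09 on the log2 scale from Te to Tl (2.84 to 4.25 over 6 ways of processing) and 3.30 from Te to Tm, and 12 and 13 of them were higher by 2-fold or more. Their summed level ranged from 8.13 at Te to 8.73 at Tm and 8.18 at Tl, a sum in which Trp63, at 8.03, 8.04 and 7.35, weighs most. Trp63 has 2 probes that disagree. From Te to Tl the brighter, which enters the sum, gave -0.68 and the other 4.04. The sum therefore says little about the other markers of this list. The summed level of the macrophage markers was 10.02, 9.92 and 9.31, and their median change was -0.42 at Tl and -0.23 at Tm, but both were above 0 with median or no scaling, as was that at Tl with quantile normalization. Langerhans and dendritic cell markers had medians of 1.40 and 1.45, and those of fibroblasts, endothelium, T cells, mast cells and neutrophils lay between -0.33 and 0.18 at Tl and between -0.98 and 0.71 at Tm. Keratinocytes express immediate early genes as well, and the part of this shift in the values below was not tested. Fewer cells of a type and less RNA per cell cannot be told apart in such pools.

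To show what the promoters of these genes look like, the 200 bases before the start site are printed for 5 of them, taken from the RefSeq promoter table (GRCm38.p6). Jun, Junb and Dusp1 had the lowest changes from Te to Tl, Egr2 the highest, and Fos a small one. Capitals mark the letters of the motifs searched on both strands, which are the CRE core TGACG, the full CRE TGACGTCA that holds it on each strand, TGACATCA in Jun, the CArG box in Egr2 and TATAAA in Fos. Jun lies at chr4:95052223-95052422 on the minus strand, Junb at chr8:84978749-84978948 on the minus strand, Dusp1 at chr17:26508473-26508672 on the minus strand, Fos at chr12:85473690-85473889 on the plus strand and Egr2 at chr10:67537669-67537868 on the plus strand.
Jun: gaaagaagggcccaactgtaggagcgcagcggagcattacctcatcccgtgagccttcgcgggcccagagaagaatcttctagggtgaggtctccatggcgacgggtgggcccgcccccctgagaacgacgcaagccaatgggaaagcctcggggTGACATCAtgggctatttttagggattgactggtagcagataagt
Junb: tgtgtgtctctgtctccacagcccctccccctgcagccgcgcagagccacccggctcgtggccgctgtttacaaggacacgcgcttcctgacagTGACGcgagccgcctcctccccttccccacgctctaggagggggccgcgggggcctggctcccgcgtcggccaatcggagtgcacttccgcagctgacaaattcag
Dusp1: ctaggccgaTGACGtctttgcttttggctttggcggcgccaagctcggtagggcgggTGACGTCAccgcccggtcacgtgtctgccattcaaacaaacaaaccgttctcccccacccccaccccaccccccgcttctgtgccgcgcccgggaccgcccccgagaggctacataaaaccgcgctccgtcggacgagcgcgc
Fos: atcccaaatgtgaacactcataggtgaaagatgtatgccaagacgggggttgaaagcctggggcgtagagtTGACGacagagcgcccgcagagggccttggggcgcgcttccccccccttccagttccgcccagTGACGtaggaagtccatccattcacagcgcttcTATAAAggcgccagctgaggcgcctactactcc
Egr2: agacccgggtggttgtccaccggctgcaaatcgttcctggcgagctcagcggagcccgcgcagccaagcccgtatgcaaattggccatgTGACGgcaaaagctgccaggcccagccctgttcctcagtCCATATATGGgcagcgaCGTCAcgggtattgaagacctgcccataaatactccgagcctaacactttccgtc

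Of the 10 genes, 8 had at least 1 window of 300 bases in that table, running from 250 before the start site to 50 after it, and Egr2 had 5 windows. Egr1 and Ier2 had none. Bases farther upstream were not searched, so a motif named as absent below is absent from these windows only. The CRE core, part of the site that CREB and ATF factors bind, was in the windows of Fos, Fosb, Junb, Egr2, Atf3 and Dusp1. It was also in 20.8% of all 32851 windows. In Fos it began 129 and 66 bases before the start, and in Junb 106 bases before it. The full palindrome TGACGTCA was found in Dusp1 only, 143 bases before the start, against 1.79% of all windows. Jun held TGACATCA, a variant AP-1 site, 45 bases before the start, as did 3.62% of all windows somewhere in their length. The CArG box, the SRF site, was found in Egr2, 72 bases before the start of the window printed, against 1.63% of all windows. The Egr site GCGNGGGCG was in Fosb (5.55% of all windows), TATAAA in Fos and Junb (13.6%), and the AP-1 site TGANTCA in none of them (7.81%). TATAAA lay 33 bases before the start in Fos, but at the start itself in Junb. The 3 genes with the lowest changes thus did not share 1 motif set, since Jun held TGACATCA without TGACG and the other 2 the reverse.

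Jun and Junb, the Jun proteins that AP-1 needs as partners of Fos, were lower on both later arrays. Junb was at 6.13 at Te, 4.63 at Tm and 4.14 at Tl. The Te level was the highest, and the later arrays lay closer to each other than to Te. Junb was 3.96-fold lower at Tl (log2 change -1.99) and 2.82-fold lower at Tm (-1.498). Only 2.84% of the 14162 genes measured on both arrays had a lower change than Junb from Te to Tl. Jun was at 5.40 at Te, 4.27 at Tm and 3.78 at Tl. It followed the same order, 3.06-fold lower at Tl (-1.61, with 6.07% of genes lower still) and 2.18-fold lower at Tm (-1.13). The order of the later arrays depended on the scaling. From Tm to Tl Junb and Jun each changed by -0.49 with the 75th percentile, but by 0.14 and 0.062 with quantile normalization. Jund, the family member that is usually expressed at a steady level, was at 6.30, 6.58 and 5.36. Jund differed from the other 2 in that its Tm level was the highest with the 75th percentile, 0.28 above Te (-0.090 with the percentile over probes detected on all arrays, 0.088 with quantile normalization), while at Tl it was 1.92-fold lower than at Te (-0.94). At Tm the change of Jund from Te minus that of Jun was 1.41 on the log2 scale, 1.63 with quantile normalization and 1.74 with normexp.

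**Figure D1:**
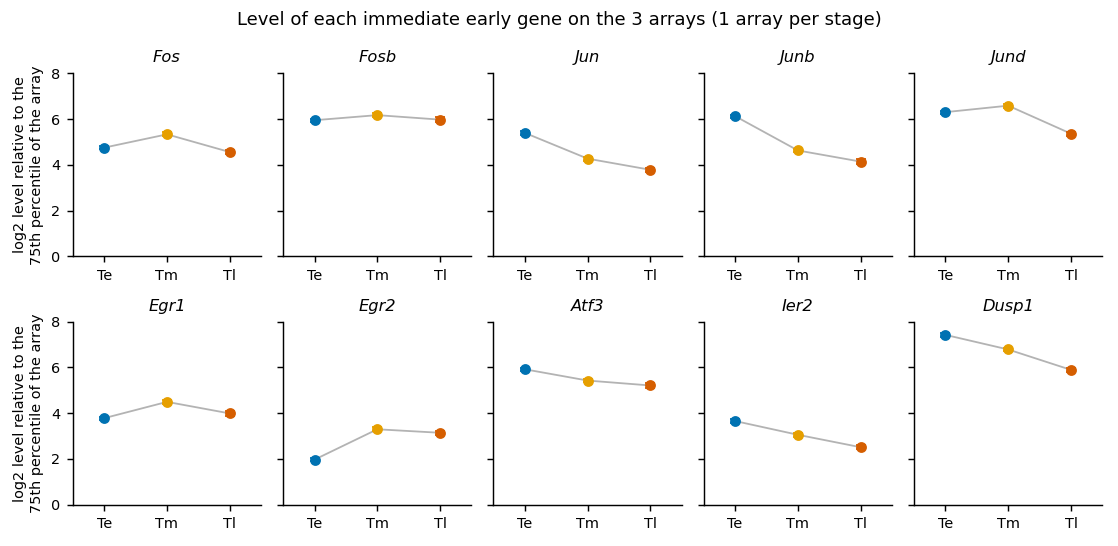
Log2 level of each immediate early gene relative to the 75th percentile of the array (y axis) on the Te, Tm and Tl arrays (x axis). Points are single arrays, and bars are the SD of repeated bright spots (0.071, 0.083 and 0.095), mostly smaller than the points. Junb, Jun, Dusp1, Ier2 and Atf3 step down from Te to Tm to Tl, while Egr2 stands lowest at Te.

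Fos and Fosb did not move with Jun and Junb. Fos, the founding partner of Jun in AP-1, was read by 10 repeated spots on each array. At Te the spots ran from 4.62 to 4.84 with a median of 4.76, at Tm from 5.19 to 5.53 with a median of 5.32, and at Tl from 4.41 to 4.72 with a median of 4.55. The Tm spots lay above all spots of the other arrays, whereas the Te and Tl spots overlapped. The mean was 4.75 ± 0.067 (SD, n = 10 spots) at Te, 5.33 ± 0.091 at Tm and 4.56 ± 0.094 at Tl. With the 75th percentile Fos was 0.58 higher at Tm than at Te on the log2 scale (SE 0.036 over spots) and changed by -0.19 at Tl (SE 0.036). The SE leaves out the scaling, since the change at Tm was 0.21 with the percentile over detected probes, -0.0041 with quantile normalization and 1.14 with median scaling. Fosb, its close relative, was at 5.95, 6.17 and 5.97, and its change from Te to Tl, 0.026, was within 2 SD of the spots, as that of Fos was by the SD of the bright probes. At Tm the change of Fosb, 0.22, barely exceeded that error, and it was below 0 with quantile normalization (-0.12) and over detected probes (-0.15).

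**Figure D2:**
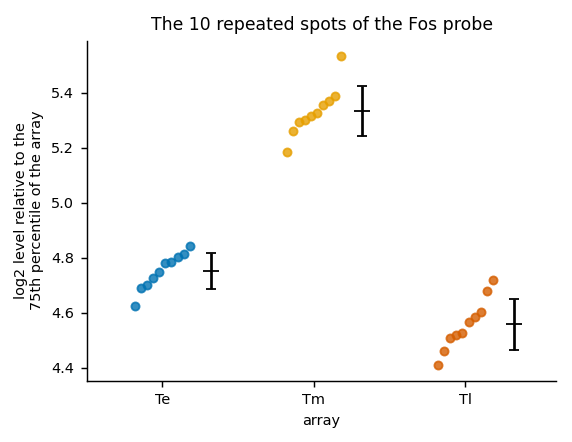
Log2 level of the 10 repeated Fos spots relative to the 75th percentile (y axis) on each array (x axis), sorted by value, with mean and SD in black. The Tm spots start at 5.19, above the highest Te spot (4.84) and the highest Tl spot (4.72).

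Because AP-1 forms from a Jun and a Fos protein, the changes of the partners were set against each other, a difference that a constant scaling of an array cannot alter. For Tl, the change of Jun minus that of Fos was -1.42, a 2.67-fold ratio, and it was -1.44 with quantile normalization and -1.63 with the normexp background correction, which are not constant scalings. For Tm it was -1.71, and -1.54 and -1.93 in the same order. The change of Junb minus that of Fosb was -2.01 for Tl and -1.72 for Tm. Jund was the exception in the Jun family at Tm only, where its change, 0.28, differed from that of Fosb, 0.22, by less than the spot error. For Tl the change of Jund, -0.94, lay below those of Fosb, 0.026, and Fos, -0.19, as the changes of Jun and Junb did.

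The Egr genes, zinc finger factors downstream of SRF, were both higher than at Te on both later arrays, although Egr1 came to a change of 0.00047 at Tl when the percentile was taken over probes detected on all arrays. Egr2, which in macrophages also takes part in differentiation, was at 1.97 at Te, 3.30 at Tm and 3.14 at Tl. The Te array was the low one, and Egr2 was 2.51-fold higher at Tm (log2 change 1.33) and 2.25-fold higher at Tl (1.17). Of the genes measured, 21.9% had a higher change than Egr2 at Tm and 17.2% at Tl. Egr1, the most widely used marker of immediate early induction, was at 3.78, 4.49 and 3.99. It was 0.71 higher at Tm, and its change of 0.21 at Tl was within 2 SD of the spots. Between the 2 extremes among the 10 genes, the change of Junb minus that of Egr2 was -3.16 for Tl, an 8.93-fold ratio, with -2.70 on the log2 scale under quantile normalization and -3.28 under normexp. For Tm it was -2.82, and -2.60 and -3.06 in the same order.

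Dusp1, Ier2 and Atf3 followed the order of Jun and Junb, highest at Te and lowest at Tl. Dusp1, the phosphatase that inactivates MAP kinases, was at 7.42 at Te, 6.78 at Tm and 5.89 at Tl. With that scaling its drop was spread over both steps, to 2.89-fold lower at Tl (-1.53) and -0.64 at Tm, and 7.14% of genes had a lower change at Tl. From Tm to Tl Dusp1 changed by -0.89, but by -0.077 with quantile normalization and 0.010 with no scaling. Ier2, a small nuclear protein of the immediate early class, was at 3.66, 3.05 and 2.51. It was 2.21-fold lower at Tl (-1.14), with 13.4% of genes lower still, and its change at Tm was -0.60. Atf3, a stress-induced factor that restrains inflammatory genes in macrophages, was at 5.92, 5.42 and 5.21. It showed the smallest drop of the 3, 1.63-fold at Tl (-0.71, with 22.9% of genes lower) and -0.49 at Tm. From Tm to Tl Atf3 changed by -0.22, within 2 SD of the spots, but by 0.67 with quantile normalization. Over the same step Ier2 changed by -0.54, but by 0.36 with no scaling.

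**Figure D3:**
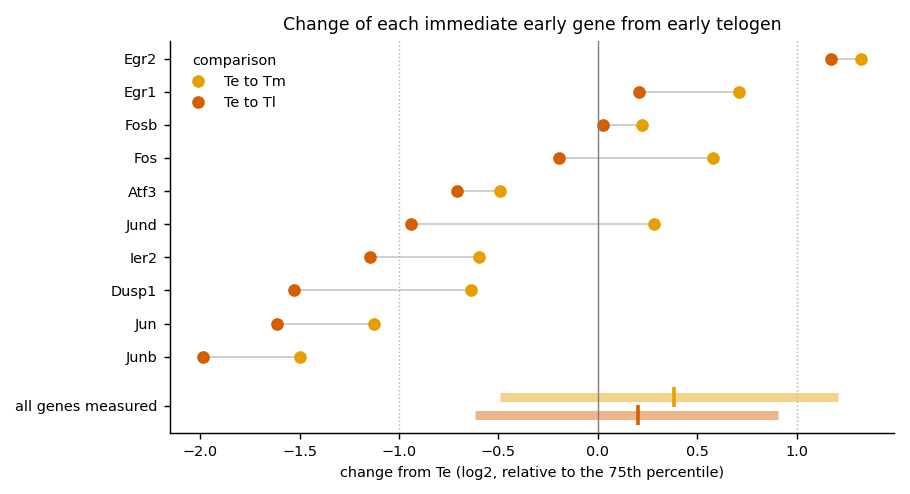
Change of each immediate early gene from Te (x axis, log2 relative to the 75th percentile) to Tm (orange) and to Tl (red), ordered by the change to Tl, with bars at the bottom for the quartiles and median of all genes measured on both arrays (14162 for Tl, 13249 for Tm). Dotted lines mark 2-fold. Junb (-1.99), Jun (-1.61) and Dusp1 (-1.53) lie left of the quartile bar for Tl (-0.62 to 0.91), and Egr2 (1.17) lies right of it.

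Counted at a difference of 2-fold, 4 of the 10 genes were lower at Tl than at Te (Junb, Jun, Dusp1 and Ier2), where 21.1% of 16185 genes with a value were, and 1 was higher (Egr2), where 22.3% were. At Tm 2 were lower than at Te (Junb and Jun), against 16.9% of 15843 genes, and Egr2 alone was higher, against 29.2%. At the 10-fold difference that the methods use, none of the 10 was higher or lower. The shares of all genes past 10-fold were 0.686% higher and 0.507% lower at Tl, and 1.14% higher and 0.316% lower at Tm. The median change of the 10 genes was -0.82 from Te to Tl, with 7 below 0, while the median of all genes was 0.15. At Tm the median change from Te was -0.13, with 5 above and 5 below 0, against 0.22 for all genes. These 2 comparisons share the Te array, so their values stand side by side and do not count as 2 measurements.

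From Tm to Tl all 10 were lower with the 75th percentile, with a median of -0.50 against -0.15 for all 14849 genes, but the median was 0.075 with quantile normalization and 0.40 with no scaling. Jund was the 1 gene past 2-fold (5.36 at Tl against 6.58 at Tm, 2.34-fold lower), where 11.3% of genes were lower and 7.85% higher. Fosb, Egr2 and Atf3 differed by less than 2 SD of the spots. Exchanging the labels of the 2 arrays, as the value table has them, turns the sign of these changes.

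Scaling set how many genes counted as lower, and it set the split over all genes too. From Te to Tl 22.3% of genes were higher and 21.1% lower with the 75th percentile, against 38.7% and 10.6% with the median of each array and 60.3% and 3.77% with no scaling, where 3 of the 10 genes were higher and 0 lower. For Tm the split of 29.2% to 16.9% became 46.1% to 7.85% with the median and 19.4% to 25.7% with the percentile over probes detected on all arrays. The median of all genes from Te to Tl moved with it, from 0.15 to 0.65 with the median and 1.31 with no scaling. Set against that median, the 10 genes stood at -0.97, -0.96 and -0.97, which a constant scaling of an array can hardly move. Quantile normalization and the normexp background correction, which are not constant scalings, gave -0.56 and -0.59. Junb, Jun and Dusp1 were lower than at Te, and Egr2 higher, on both later arrays under each of these scalings and with normexp. Their changes to Tl ran from -2.19 to -0.82 for Junb, from -1.82 to -0.45 for Jun, from -1.73 to -0.37 for Dusp1 and from 0.97 to 2.34 for Egr2. At Tm the change of Dusp1 was -0.081 with median scaling, within 2 SD of the spots (0.218). Ier2, Jund, Atf3 and Fos were above 0 at Tl with no scaling.

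**Figure D4:**
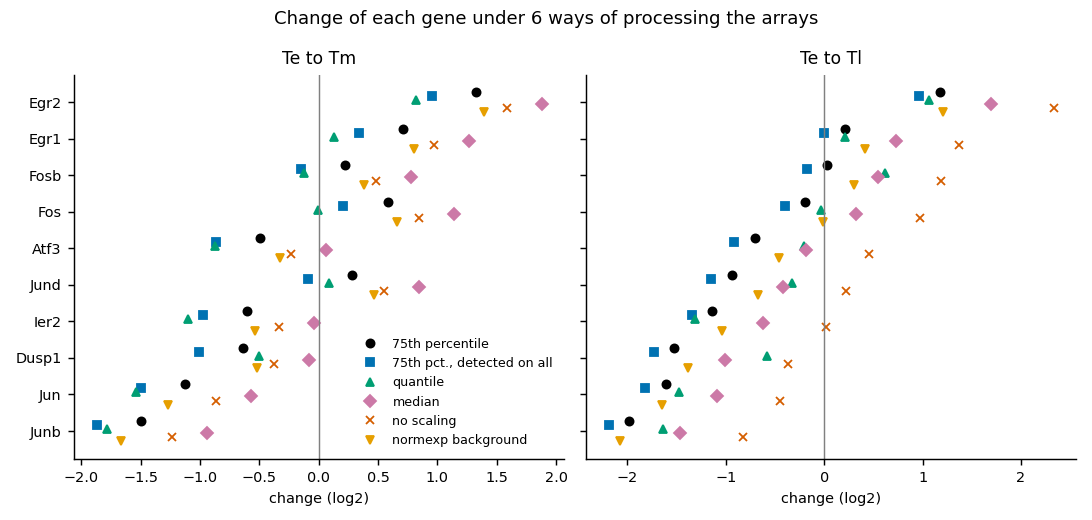
Change of each gene (x axis, log2) from Te to Tm (left) and from Te to Tl (right) under 6 ways of processing the arrays, given by symbol. With no scaling at all the changes to Tl are 1.16 higher than with the 75th percentile for every gene, yet Junb, Jun and Dusp1 stay below 0 and Egr2 above 0 under each of the 6.

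The other genes of the pathway, taken from lists of names, lay nearer to the median of all genes at Tl than the 10 genes did. Over 87 such genes the median change from Te to Tl was 0.20, 13 (14.9%) were higher by 2-fold or more and 15 (17.2%) lower, beside the 22.3% and 21.1% of all genes. From Te to Tm the median was 0.21, with 24 (27.6%) higher and 11 (12.6%) lower, beside 29.2% and 16.9% of all genes. Among 12 AP-1 and ATF partners 4 were lower at Tl and 0 higher, with a median of -0.11, and 2 were lower at Tm and 1 higher, with a median of 0.055. Batf and Batf3, leucine zipper factors that pair with Jun proteins, changed by -1.68 and -1.62 at Tl and by -1.33 and -1.41 at Tm. Maff, a small Maf factor, changed by 0.91 and 1.01.

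Among 12 other immediate early transcription factors 4 were higher at Tl and 0 lower, where 22.3% and 21.1% of all genes were, with a median of -0.076. At Tm 3 of them were higher and 3 lower, where 29.2% and 16.9% of all genes were, with a median of 0.12. Egr3, the relative of Egr2, changed by 1.69 at Tl and 1.87 at Tm. Nr4a1, a nuclear receptor induced by the same stimuli, changed by 1.15 and 1.24, whereas its relative Nr4a3 changed by -0.91 and -1.94. Klf6, a Krüppel-like factor, changed by -0.98 and -1.42. With the 75th percentile Egr2, Egr3 and Nr4a1 were thus higher on both later arrays, on which Jun, Junb and Klf6 were lower.

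Among 23 feedback regulators 6 were lower at Tl and 2 higher, where 21.1% and 22.3% of all genes were, with a median of 0.22. At Tm 3 were lower and 6 higher, where 16.9% and 29.2% of all genes were, again with a median of 0.22. Nfkbiz, a nuclear regulator of NF-κB targets, changed by -1.73 at Tl and -2.14 at Tm. Ier5, a relative of Ier2, changed by -1.84 and -2.31 at its brighter probe, but its other probe changed by 0.53 at Tl. Errfi1, an inhibitor of EGF receptor signalling, and the antiproliferative gene Btg2 were higher, by 1.39 and 1.16 at Tl and by 1.07 and 1.31 at Tm.

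The heat shock genes, a stress response run by HSF1 and not by AP-1, were at or above their Te level in most cases. Of 13 on the array 3 were higher by 2-fold at Tl, a share close to the 22.3% of all genes, and 8 at Tm, where 29.2% of all genes were. On either array 0 were lower, where 21.1% of all genes were at Tl and 16.9% at Tm, and the median was 0.63 and 1.21. Hsp90ab1, a cytosolic chaperone, changed by 1.43 at Tl and 1.39 at Tm, and Hsph1 by 1.44 and 1.22. Hspa8, the constitutive HSC70, changed by -0.52 and -0.24 at the brightest of its 3 probes, but another of its probes changed by 0.24 at Tl. The median of the heat shock list and that of the 10 immediate early genes (-0.82 and -0.13) lay on opposite sides of 0 on both later arrays, but with no scaling both were above 0 (1.79 and 0.34 at Tl), as they were at Tm with median scaling and normexp. The heat shock median was the higher of the pair under all 6 ways of processing and ran from 0.42 to 1.79 at Tl. Only quantile normalization and normexp could have changed that order, since the other ways shift an array by a constant. At Tl the heat shock and immediate early medians were 0.58 and -0.26 with quantile normalization, and 0.79 and -0.56 with normexp. The keratinocyte markers moved up on the same arrays, as given above.

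Induced cytokine and adhesion genes went both ways. Of 10, 3 were lower at Tl and 1 higher, with a median of -0.014, and 1 was lower and 1 higher at Tm, with a median of -0.25. For this list and the next, the shares of all genes were 21.1% lower and 22.3% higher at Tl, and 16.9% and 29.2% at Tm. Ptgs2, the inducible cyclooxygenase, changed by -2.67 at Tl, and at Tm it was not well above background. Il1b changed by -1.22 and -0.50, Cxcl2 by 1.12 and -0.15, and Tnf by 0.83 and 2.19. Of 17 upstream signal transducers 3 were higher and 2 lower at Tl, with a median of 0.33, and 5 were higher and 2 lower at Tm, with a median of 0.13. Crem, a CREB relative, changed by -1.09 at Tl and -1.72 at Tm, and Elk1, a partner of SRF, by -1.01 and -0.24.

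**Figure D5:**
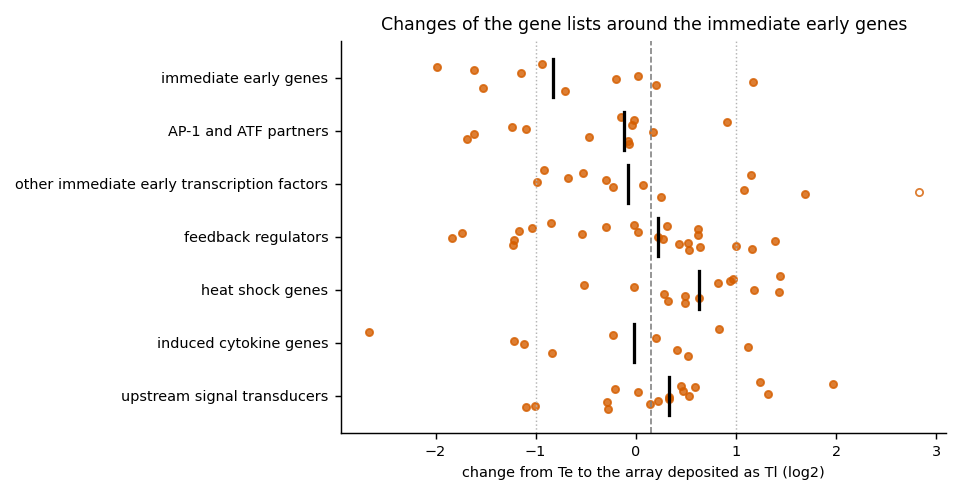
Change from Te to Tl (x axis, log2) of the 10 immediate early genes and of the genes on 6 related lists (y axis), 1 point per gene, with an open point where the gene was well above background on 1 array only. Black bars are list medians, the dashed line is the median of all genes (0.15) and dotted lines mark 2-fold. The bar of the immediate early genes is at -0.82 and that of the heat shock genes at 0.63.

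Among the 13078 genes detected on all 3 arrays, those whose 2 changes from Te came nearest to the median of the 10 genes (-0.82 at Tl and -0.13 at Tm) were Asb18, Kcnk15, Itgb3, H2-K1 and Vmn2r3, at Euclidean distances of 0.010, 0.044, 0.049, 0.054 and 0.057. Itgb3, the integrin beta3 chain, changed by -0.79 and -0.17, and H2-K1, a class I histocompatibility gene, by -0.79 and -0.18. The likeness rests on 2 differences that share the Te array. None of the 10 genes itself lay on that median, since they ran from -1.99 to 1.17 at Tl.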

How the data were processed

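The authors pooled RNA of 3 littermates per stage, amplified it (TransPlex WTA2), labelled it with Cy3 by ULS and hybridised it to Agilent arrays with 1 colour. The deposited scanner files hold processed intensity per spot, background-subtracted by Feature Extraction. The deposited value table holds log2 values of 36409 probes, centred on each probe's median, all with a range of at least 1.00. It lists 6 of the 10 genes (Jun, Junb, Jund, Egr2, Ier2 and Dusp1). Its column medians are 0.362 for Te and 0 for Tm and Tl. Its differences equal those of the scanner files scaled to the 75th percentile with Tm and Tl exchanged, apart from offsets of 0.000757 and 0.00399, and the methods give no normalization.

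Control spots and outlier spots (162 to 281 per array) were left out, repeated spots were averaged on the log2 scale, and the 75th percentile of the array was subtracted. A probe counted as detected where the scanner software marked a share of 0.5 or more of its spots as well above background. A change with 1 array below background was set as a bound, and a gene took its brightest probe. Symbols came from RefSeq accessions: 26056 probes had a symbol and 29625 did not. The error is the SD over probes with 10 or more spots and a log2 level of 2 or more (24, 31 and 20 probes at Te, Tm and Tl). The number of arrays, 1 per stage, limits the precision, and no p-value is given. The calculation was tested on simulated data. Tools were Python 3.11.15, pandas 2.3.3, numpy 2.4.6, R 4.3.3 and limma 3.58.1, the last for the normexp correction with an offset of 50. Alternatives were 4 other scalings, normexp, both filters on dim probes, outlier spots kept, the median over probes, the value table and the exchanged arrays. The named genes are the 10, up to 2 each way with the largest changes to Tl from each list, and the 5 nearest profiles, apart from 1 list gene that is not reported here. The 10 genes and the lists were chosen with earlier results of these data known.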

Additional observations from a re-analysis of the deposited data

How the results depend on the processing

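The median change of the 10 genes from Te to Tl (-0.82) was -1.03 with the percentile over probes detected on all arrays, -0.26 with quantile normalization, -0.30 with median scaling, 0.34 with no scaling, -0.56 with normexp, -0.62 in the value table (6 genes) and -0.13 with the later arrays exchanged. To Tm (-0.13) it was, in the same order, -0.51, -0.31, 0.42, 0.13, 0.030, -1.34 and -0.82. From Tm to Tl (-0.50) it was -0.33 over detected probes, 0.075 with quantile normalization, 0.40 with no scaling, 0.52 in the value table and 0.50 exchanged. The genes higher by 2-fold at Tl (1) numbered 0 over detected probes, 3 with no scaling and 0 at 10-fold. At Tm (1) they numbered 0 over detected probes, 0 with quantile normalization, 3 with median scaling and 0 at 10-fold. The genes lower at Tl (4) numbered 5 over detected probes, 3 with quantile normalization, 3 with median scaling, 0 with no scaling, 2 in the value table, 2 exchanged and 0 at 10-fold. At Tm (2) they numbered 3 over detected probes, 3 with quantile normalization, 0 with median scaling, 1 with no scaling, 4 in the value table, 4 exchanged and 0 at 10-fold. From Tm to Tl the value table and the exchange gave 1 gene higher in place of 0, and quantile normalization, no scaling, the value table, the exchange and the 10-fold threshold gave 0 lower in place of 1. From Te to Tl, no scaling turned the sign of Ier2 (0.020 in place of -1.14), Jund (0.22), Atf3 (0.46) and Fos (0.97), median scaling that of Fos (0.33), and the percentile over detected probes that of Fosb (-0.18). At Tm, median scaling turned Atf3 (0.065), quantile normalization Fos (-0.0041) and Fosb (-0.12), and the percentile over detected probes Fosb (-0.15) and Jund (-0.090). Jund from Te to Tl was 0.29 in the value table and 0.28 exchanged, and from Tm to Tl it was 1.23 and 1.22 in place of -1.22. The exchange only renames the arrays, and the value table lists fewer genes under exchanged names, while the cause of the other shifts was not tested.

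The filters on dim probes and the median over probes could not move any of the 10 genes. Each has 1 probe and was well above background on all 3 arrays. With outlier spots kept, the direction of all 10 genes stayed the same in each comparison. No paired analysis was possible because each stage has 1 array. For the same reason no array was left out. The spot error says nothing of mice, sorts or amplifications, and the signal over background limits dim list genes such as Ptgs2 at Tm and Egr4 at Te.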
